A study of Mus musculus with 8 samples.

Results

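Genes for postsynaptic scaffolds and synaptic adhesion molecules were examined in striatum RNA sequencing data of 16p11.2+/- mice and WT controls. The 37 genes were taken by symbol from a listed set, and all 37 were found among the 55032 genes of the count table. The samples came from female C57BL/6 mice at postnatal day 60, with 4 WT mice (WT-1015, WT-1041, WT-1061 and WT-1063) and 4 16p11.2+/- mice (labelled DF-1018, DF-1037, DF-1059 and DF-1062), and each mouse gave 1 library of striatum tissue. The 16p11.2+/- mice carry 1 copy of a chromosome 7 segment that corresponds to the human 16p11.2 region, in every cell, and no other allele or treatment is given for either group. None of the 37 genes lies inside the span of the genes that were lower in these mice, and 4 of them (Dlg2, Shank1, Shank2 and Homer2) lie elsewhere on chromosome 7.

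At an excitatory synapse, the postsynaptic density is a layered protein mesh under the membrane. PSD-95 family scaffolds hold glutamate receptors at the top, SAPAP proteins link them to Shank proteins below, and Homer proteins join Shank to metabotropic glutamate receptors and internal calcium stores. Across the cleft, presynaptic neurexins bind postsynaptic neuroligins and leucine-rich repeat proteins, and these pairs help to align release sites with receptors. In the striatum, most neurons are medium spiny neurons, inhibitory cells whose dendritic spines receive glutamatergic input from cortex and thalamus.

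Total counts ranged from 15125051 to 16387993 in WT mice and from 15240680 to 16523429 in 16p11.2+/- mice, and the low-count filter kept 18294 genes. The genotype labels were checked on the deleted segment: 17 genes were lower in 16p11.2+/- mice (edgeR quasi-likelihood test, adjusted p under 0.05), all within chr7:126695401-127208468 (GRCm38), with log2 fold changes between -1.23 and -0.93. The tissue label was checked on marker genes. Summed FPKM of 10 medium spiny neuron genes was 934.6 to 1568 in 6 mice, but 359.2 in DF-1037 and 287.7 in DF-1062. Summed FPKM of 8 thalamic neuron genes, which include Slc17a6 (the vesicular glutamate transporter of thalamic relay cells), was 14.1 to 21.7 in 4 mice and 109.0 to 212.4 in WT-1063, DF-1018, DF-1037 and DF-1062. In the 4 mice with low sums, Shox2, a thalamic transcription factor, lay between 0 and 0.65 FPKM, and it was at 0 in WT-1041. WT-1063 also held choroid plexus RNA, with 4431 summed FPKM over 7 genes against 7.80 to 477.7 in the other mice. Cortical glutamatergic neuron RNA varied as well. Summed FPKM of 7 such genes was 187.9 in DF-1037, 131.5 in WT-1041 and 108.1 in WT-1015, and 19.9 to 52.8 in the other mice. In tissue RNA, fewer cells of a type and less RNA per cell cannot be told apart, and nothing in the labels gives a batch.

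The members spanned a wide range of levels. FPKM (fragments per kilobase, scaled to the library total) takes gene length into account, so that levels of different genes can be set side by side. Over the 8 mice the mean level ran from 1.63 FPKM for Homer3 to 202.2 FPKM for Camk2a, and the fewest counts of any member in any mouse were 77. No member had a WT range that was fully separate from its 16p11.2+/- range, where 2.83% of all genes tested had separate ranges. In the values below, the 4 WT mice come in the order WT-1015, WT-1041, WT-1061 and WT-1063, and the 4 16p11.2+/- mice in the order DF-1018, DF-1037, DF-1059 and DF-1062.

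**Figure D1:**
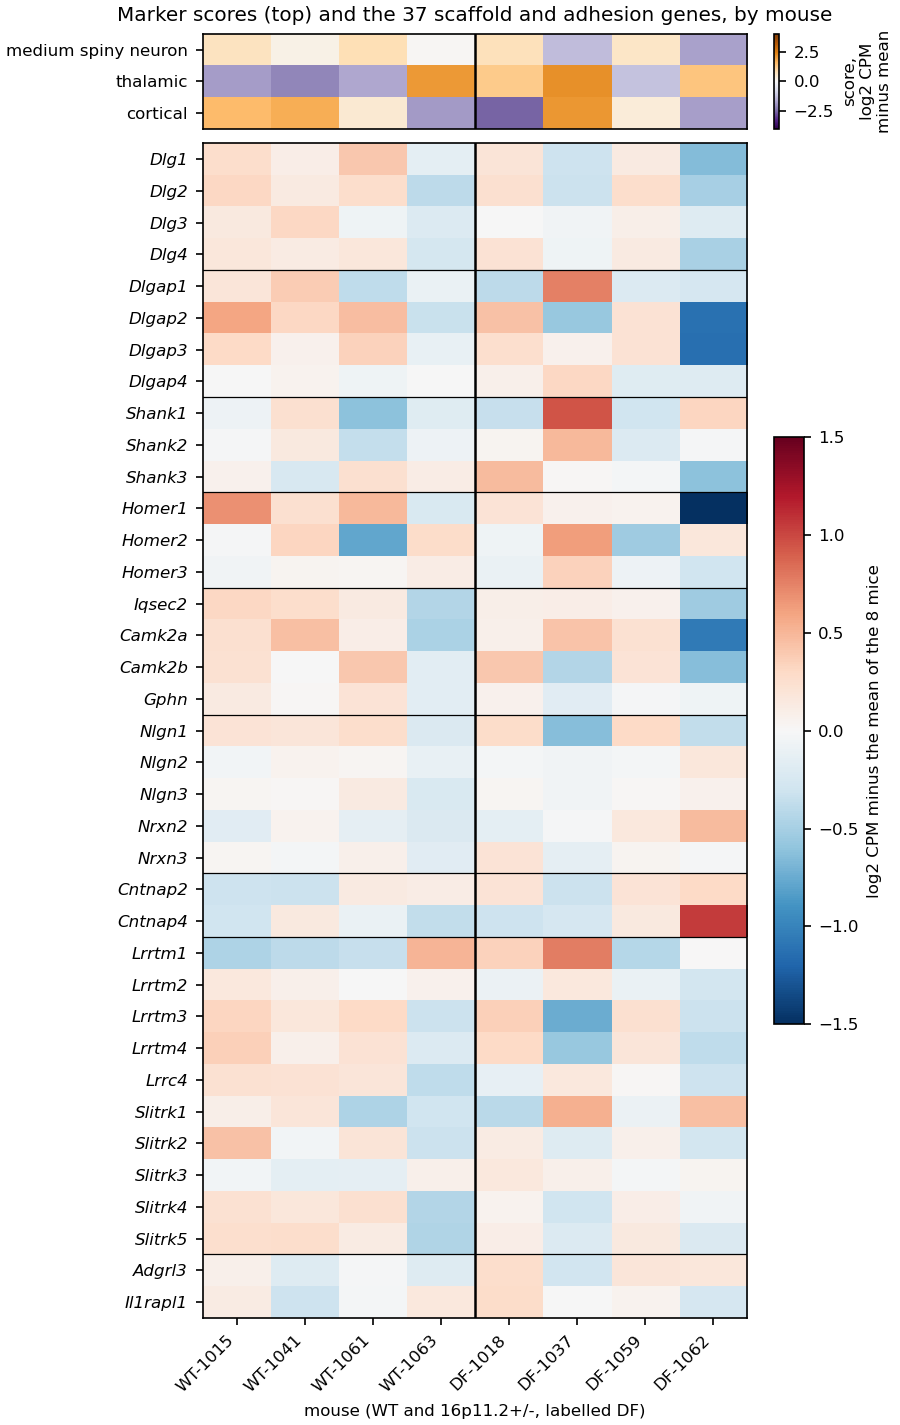
Heatmap of the level of each of the 37 genes (rows, ordered by role) in each mouse (columns), as log2 CPM minus the mean of the 8 mice, under a strip with 3 marker scores on the same kind of scale. Single mice stand out within each genotype: DF-1062 was the lowest mouse for 12 genes and WT-1063 for 10, while DF-1037 was the highest for 9.

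The MAGUK scaffolds (Dlg1 to Dlg4) anchor glutamate receptors and ion channels through PDZ domains. Dlg4 (PSD-95, chr11:70016942-70047522), the main scaffold of excitatory synapses, was the most abundant of them. Its FPKM was 53.0, 52.4, 53.3 and 40.1 in WT mice and 54.2, 45.7, 52.7 and 36.4 in 16p11.2+/- mice. WT-1063, DF-1037 and DF-1062 were low and the other 5 mice lay within 52.4 to 54.2, so that the groups overlapped. The means were 49.7 ± 6.43 and 47.2 ± 8.13 (SD, n = 4 each), and the log2 fold change was -0.09 with a standard error of 0.17 (edgeR adjusted p = 0.919). The same 3 mice were the lowest for Dlg1 (SAP97, a scaffold in receptor trafficking) and for Dlg2 (PSD-93, a close relative of PSD-95). Dlg1 FPKM was 25.6, 23.3, 28.2 and 19.7 in WT mice and 24.2, 17.6, 24.0 and 14.7 in 16p11.2+/- mice. Dlg2 FPKM was 35.8, 32.5, 34.7 and 22.5 in WT mice and 33.8, 23.5, 35.3 and 22.1 in 16p11.2+/- mice. Dlg3 (SAP102), which is prominent in early development, varied less, between 23.9 and 34.2 FPKM.

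SAPAP proteins connect the MAGUK layer with Shank. Dlgap3 (SAPAP3, chr4:127169204-127237022), the SAPAP that is prominent in striatum and whose loss in mice is known for compulsive grooming, had the highest level. Its FPKM was 68.4, 59.4, 70.9 and 52.6 in WT mice and 65.9, 59.2, 66.2 and 27.3 in 16p11.2+/- mice. DF-1062 stood far below the other 7 mice, which all had over 52 FPKM. The means were 62.8 ± 8.39 and 54.6 ± 18.5 (SD, n = 4 each), with a log2 fold change of -0.21 and a standard error of 0.27 (edgeR adjusted p = 0.886). Dlgap2 (SAPAP2) FPKM was 12.9, 10.8, 11.8 and 6.94 in WT mice and 11.5, 5.86, 10.1 and 4.24 in 16p11.2+/- mice. The low values were again in WT-1063, DF-1037 and DF-1062. Dlgap1 (SAPAP1), a forebrain SAPAP, was lowest in DF-1018 at 11.7 FPKM and highest in DF-1037 at 26.4 FPKM, and Dlgap4 (SAPAP4) stayed between 20.9 and 29.4 FPKM.

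Shank proteins form the deep platform of the postsynaptic density. Shank1 (chr7:44310253-44360572) and Shank3 had nearly the same mean level over all mice, 31.0 and 30.1 FPKM, but differed in which mice were high. Shank1 FPKM was 27.3, 34.8, 18.9 and 25.9 in WT mice and 22.3, 56.2, 23.8 and 38.8 in 16p11.2+/- mice. Its 2 highest values were in DF-1037 and DF-1062, the mice with low medium spiny neuron markers. Its means were 26.7 ± 6.52 and 35.3 ± 15.8 (SD, n = 4 each), with a log2 fold change of 0.38 and a standard error of 0.30 (edgeR adjusted p = 0.859). Without DF-1037 it was 0.06. Shank3, the Shank with a known part in corticostriatal synapses, had 30.3, 25.1, 34.5 and 32 FPKM in WT mice and 40.0, 29.9, 29.0 and 20.4 FPKM in 16p11.2+/- mice. Shank3 was thus highest in DF-1018 and lowest in DF-1062. The ratio of Shank1 to Shank3 was 0.547 to 1.39 in 6 mice, and 1.88 in DF-1037 and 1.90 in DF-1062. Shank2 lay between 11.4 and 20.8 FPKM and was also highest in DF-1037.

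Homer proteins cross-link Shank and group I metabotropic glutamate receptors, and short Homer1 forms that are induced by activity break these links. The counts do not separate the Homer1 forms. Homer1 (chr13:93299635-93405129) FPKM was 29.3, 21.9, 25.6 and 15.8 in WT mice and 20.8, 19.4, 19.3 and 6.96 in 16p11.2+/- mice. DF-1062 was far below the next lowest mouse, and the ranges of the other mice overlapped between genotypes. The means were 23.2 ± 5.73 and 16.6 ± 6.47 (SD, n = 4 each). The log2 fold change of -0.49 was the lowest of the 37 and had a standard error of 0.35 (edgeR adjusted p = 0.859). Without DF-1062 it was -0.21. Homer2, a related long-form cross-linker, had 2.75 to 7.44 FPKM, and the ratio of Homer1 to Homer2 ran from 1.22 in DF-1062 to 9.31 in WT-1061. Homer3 was the scarcest member at 1.39 to 2.07 FPKM, and 25.4% of its exon bases are shared with Ddx49 on the opposite strand, so that its counts are uncertain.

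Camk2a and Camk2b encode the alpha and beta subunits of CaMKII, the calcium-dependent kinase that is also a structural part of the postsynaptic density. They had the highest levels of the 37. Camk2a (chr18:60925618-60988152) FPKM was 224.8, 264.5, 204.7 and 139.8 in WT mice and 198.0, 260.7, 226.9 and 98.3 in 16p11.2+/- mice. WT-1063 and DF-1062 were low and WT-1041 and DF-1037 were high. The means were 208.5 ± 52.1 and 196.0 ± 69.98 (SD, n = 4 each), with a log2 fold change of -0.10 and a standard error of 0.31 (edgeR adjusted p = 0.949). Camk2b (chr11:5969644-6066362), whose product binds actin in spines, had 106.3, 92.3, 121.0 and 83.0 FPKM in WT mice and 119.3, 68.2, 107.0 and 63.1 FPKM in 16p11.2+/- mice. Both Camk2b values under 70 were in DF-1037 and DF-1062, so that DF-1037 was high for the alpha and low for the beta subunit. The ratio of Camk2a to Camk2b was 3.82 in DF-1037 and 1.56 to 2.87 in the other mice. Iqsec2, an exchange factor for ARF6 in the postsynaptic density, lay between 11.1 and 18.5 FPKM. Gphn (gephyrin), the scaffold of inhibitory synapses that clusters GABA-A and glycine receptors, was among the steadiest members, at 21 to 26.8 FPKM.

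Among the presynaptic neurexins and their neuroligin partners, Nrxn3, Nlgn2 and Nlgn3 varied little, with a highest mouse at most 1.29 times the lowest. Nrxn3 (chr12:88722876-90334935) was the most abundant, with 31.95, 31.1, 33.0 and 28.5 FPKM in WT mice and 35.6, 29.0, 32.8 and 33.2 FPKM in 16p11.2+/- mice. The highest mouse had 1.25 times the lowest, and the groups overlapped. Its means were 31.1 ± 1.94 and 32.7 ± 2.70 (SD, n = 4 each), with a log2 fold change of 0.05 and a standard error of 0.10 (edgeR adjusted p = 0.925). Nrxn2 FPKM was 12.8, 15.3, 13.1 and 12.7 in WT mice and 12.9, 14.5, 16.3 and 21.5 in 16p11.2+/- mice. DF-1062 was highest, and DF-1018 and DF-1037 lay within the WT range. The unadjusted p of Nrxn2, 0.103 by edgeR, was the smallest of the 37 between genotypes (log2 fold change 0.25, standard error 0.14, adjusted p = 0.859). Without DF-1062 the log2 fold change was 0.13. Nlgn2, the neuroligin of inhibitory synapses, was the most abundant neuroligin at 26.7 to 34.2 FPKM. Nlgn1, the neuroligin of excitatory synapses, was 8.12, 8.13, 8.46 and 6.19 FPKM in WT mice and 8.41, 4.61, 8.85 and 5.87 FPKM in 16p11.2+/- mice. Its low values fell in WT-1063, DF-1037 and DF-1062, as for Dlg2 and Dlgap2. Nlgn3, which acts at both kinds of synapse, lay between 8.19 and 10.6 FPKM, but 41.2% of its exon bases are shared with Gm21986 on the same strand, so that its counts are uncertain.

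Cntnap2 and Cntnap4 belong to the Caspr family of neurexin-like adhesion proteins. Cntnap2 (Caspr2, chr6:45059357-47304213), which clusters potassium channels along myelinated axons, had 12.9, 13.0, 17.5 and 17.5 FPKM in WT mice and 18.3, 12.9, 18.7 and 21.1 FPKM in 16p11.2+/- mice. DF-1037 lay with the 2 lowest WT mice and DF-1062 was highest. The means were 15.2 ± 2.66 and 17.8 ± 3.45 (SD, n = 4 each), with a log2 fold change of 0.20 and a standard error of 0.17 (edgeR adjusted p = 0.859). Cntnap4 (Caspr4), known for its presynaptic place in interneurons, had 2.35, 3.26, 2.71 and 2.28 FPKM in WT mice and 2.31, 2.47, 3.27 and 6.48 FPKM in 16p11.2+/- mice. A single mouse, DF-1062, had about 2 times the level of any other, and the other 3 16p11.2+/- mice lay within or just above the WT range. Its log2 fold change of 0.42 (standard error 0.30, edgeR adjusted p = 0.859) was the highest of the 37, and without DF-1062 it was 0.03.

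The leucine-rich repeat proteins are postsynaptic adhesion molecules: LRRTMs bind neurexins, Slitrks bind presynaptic receptor phosphatases, and Lrrc4 (NGL-2) binds netrin-G2. The upstream 250 bases of Lrrtm1, Lrrtm3 and Lrrtm4 are shown because the lowest mice for Lrrtm3 and Lrrtm4 were among the highest for Lrrtm1. Those of Camk2b are shown because its level followed the medium spiny neuron markers most closely of the 37 by p. All windows are read 5′ to 3′ up to the base before a RefSeq start site (GRCm38.p6). Capitals mark matches, on either strand, to the letters of any of 4 motifs. For the cAMP response element these letters were TGACGTCA. Sites of EGR factors were looked for as GCGNGGGCG. A GC box, which Sp factors bind, was spelled GGGCGG. The last motif, the basal TATA box, was spelled TATAAA.
Lrrtm1, chr6:77242227-77242476, plus strand: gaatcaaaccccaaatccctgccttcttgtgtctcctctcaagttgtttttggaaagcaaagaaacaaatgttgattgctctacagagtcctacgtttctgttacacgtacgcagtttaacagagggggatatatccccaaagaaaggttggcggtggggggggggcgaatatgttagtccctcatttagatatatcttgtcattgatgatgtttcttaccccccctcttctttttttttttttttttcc
Lrrtm3, chr10:64090256-64090505, minus strand: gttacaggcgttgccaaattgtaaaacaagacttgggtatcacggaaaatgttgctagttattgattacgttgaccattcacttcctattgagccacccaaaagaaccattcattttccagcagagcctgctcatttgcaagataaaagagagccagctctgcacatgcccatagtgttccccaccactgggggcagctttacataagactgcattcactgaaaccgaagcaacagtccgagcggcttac
Lrrtm4, chr6:80018627-80018876, plus strand: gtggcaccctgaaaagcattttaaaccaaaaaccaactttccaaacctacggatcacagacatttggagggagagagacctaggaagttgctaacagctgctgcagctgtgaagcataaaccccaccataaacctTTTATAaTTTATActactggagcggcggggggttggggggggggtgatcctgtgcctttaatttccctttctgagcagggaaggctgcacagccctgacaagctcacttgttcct
Camk2b, chr11:6065749-6065998, minus strand: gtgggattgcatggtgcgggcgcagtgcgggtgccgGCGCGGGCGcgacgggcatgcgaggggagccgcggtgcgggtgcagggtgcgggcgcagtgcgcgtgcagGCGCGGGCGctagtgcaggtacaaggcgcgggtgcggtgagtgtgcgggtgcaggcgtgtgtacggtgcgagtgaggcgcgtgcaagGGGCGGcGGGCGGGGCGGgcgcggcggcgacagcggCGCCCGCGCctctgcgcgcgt
The Camk2b window held 44 CpG dinucleotides in 78.4% GC, with 3 EGR matches and 3 GC boxes, some of whose letters overlap or adjoin. The LRRTM windows held 5, 6 and 3 CpG dinucleotides in 42.0%, 46.0% and 49.2% GC for Lrrtm1, Lrrtm3 and Lrrtm4. Lrrtm4 had 2 TATA box matches, both on the strand opposite to the gene, where they read TTTATA as printed. The Lrrtm1 and Lrrtm3 windows had none of the 4 motifs. Of 32851 RefSeq windows of the same length, 1.55% held the cAMP response element, 4.7% the EGR site, 32.7% the GC box and 12.4% the TATA box. A match is a description of these letters, and no binding was measured. The RefSeq table held 28 of the 37 genes. The Lrrtm1 start lies 212 bases from the nearest GENCODE M21 start of that gene. The Camk2b start, at 6065748, equals an M21 start but lies inside the gene, which begins at 6066362 on the minus strand. The Lrrtm3 window has 22 bases inside M21 exons of that gene.

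Among these adhesion genes Lrrtm2 (chr18:35209003-35215024), a neurexin ligand, had the highest level and was steady. Its FPKM was 23.2, 22.4, 20.8 and 22.3 in WT mice and 19.4, 23.6, 19.7 and 18.6 in 16p11.2+/- mice. DF-1037 was highest and the other 3 16p11.2+/- mice were below all WT mice. The means were 22.2 ± 0.97 and 20.3 ± 2.23 (SD, n = 4 each), with a log2 fold change of -0.14 and a standard error of 0.10 (edgeR adjusted p = 0.859). Lrrtm1 (chr6:77242689-77257791), known for its part in excitatory synapse formation and high in thalamus, had 12.1, 13.0, 13.2 and 24.4 FPKM in WT mice and 21.1, 28.9, 12.6 and 18.1 FPKM in 16p11.2+/- mice. The 4 values over 18 FPKM were those of WT-1063, DF-1018, DF-1037 and DF-1062, and the 4 others lay between 12.1 and 13.2. Its means were 15.7 ± 5.84 and 20.2 ± 6.79 (SD, n = 4 each), with a log2 fold change of 0.35 and a standard error of 0.29 (edgeR adjusted p = 0.859). It was 0.12 without DF-1037 and 0.64 without WT-1063.

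Lrrtm3 had 20.2, 18.6, 19.97 and 13.2 FPKM in WT mice and 20.4, 9.73, 19.4 and 13.9 FPKM in 16p11.2+/- mice. Lrrtm4, which also binds heparan sulphate proteoglycans, had 5.59, 4.69, 5.08 and 3.84 FPKM in WT mice and 5.33, 2.99, 5.05 and 3.60 FPKM in 16p11.2+/- mice. For both genes, WT-1063, DF-1037 and DF-1062 were the 3 lowest mice. The ratio of Lrrtm1 to Lrrtm3 was 0.599 to 0.701 in the 4 mice with low thalamic sums, and 1.85, 1.04, 2.97 and 1.31 in WT-1063, DF-1018, DF-1037 and DF-1062. Lrrtm1, Lrrtm2, Lrrtm3 and Lrrc4 lie inside catenin genes or Snd1 on the opposite strand. Of these, only Lrrtm2 shares exon bases with another gene (1.58%). Of the exon bases of Lrrtm4, 25.1% are shared with Gm4409 on the opposite strand. Nlgn1 shared 9.16%, Adgrl3 8.91%, Cntnap4 8.01% and Nrxn2 6.44% with genes on the opposite strand. Without a stated strand setting, reads from bases that both genes of a pair cover cannot be told apart. Slitrk4 had 9.14, 8.94, 9.23 and 5.84 FPKM in WT mice and 8.04, 6.42, 8.52 and 8.11 FPKM in 16p11.2+/- mice. Slitrk5, whose loss in mice is known for compulsive grooming, had 14.4, 14.9, 13.3 and 9.04 FPKM in WT mice and 12.9, 10.7, 13.7 and 11.3 FPKM in 16p11.2+/- mice. Both genes were lowest in WT-1063 and next lowest in DF-1037. Slitrk3, which promotes inhibitory synapses, lay between 12.3 and 14.9 FPKM. Its ratio of highest to lowest mouse, 1.21, was the smallest of the 37.

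Of the last members, Adgrl3 (latrophilin 3, chr5:81020138-81825133), an adhesion receptor for FLRT and teneurin proteins, had 4.93, 4.18, 4.62 and 4.17 FPKM in WT mice and 5.56, 3.88, 5.40 and 5.66 FPKM in 16p11.2+/- mice. Among the 16p11.2+/- mice DF-1037 was low, below every WT mouse, and the other 3 were above every WT mouse. Its means were 4.47 ± 0.37 and 5.12 ± 0.84 (SD, n = 4 each), with a log2 fold change of 0.17 and a standard error of 0.13 (edgeR adjusted p = 0.859). Il1rapl1, a postsynaptic partner of receptor phosphatases, lay between 2.03 and 2.95 FPKM.

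Between genotypes, no member passed the test. All 37 were tested, 0 had an edgeR adjusted p under 0.05 (0.109% of all genes tested did), and 0 had an unadjusted p under 0.05 (4.32% of all genes did). DESeq2 and limma-voom called 0 members as well. Of the 37, 21 (56.8%) had a log2 fold change below 0 and 16 above, where 51.8% of all genes tested were below 0. The median of the 37 was -0.09 beside -0.01 over all genes tested. All 4 MAGUK genes and all 4 genes of the signalling and inhibitory scaffold group were below 0, and both Caspr genes, Adgrl3 and Il1rapl1 were above 0, but none of these values passed the test. Without DF-1037 and DF-1062, the 2 mice lowest in medium spiny neuron markers, the median was 0.03. Standard errors ran from 0.08 for Slitrk3 to 0.35 for Homer1, so that the size of difference these 8 mice can show depends on the gene. Other synaptic scaffold and adhesion genes were read in the same fit. Of 71 such genes 0 were called, and 3 (4.23%) had an unadjusted edgeR p under 0.05, near the 4.32% of all genes.

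**Figure D2:**
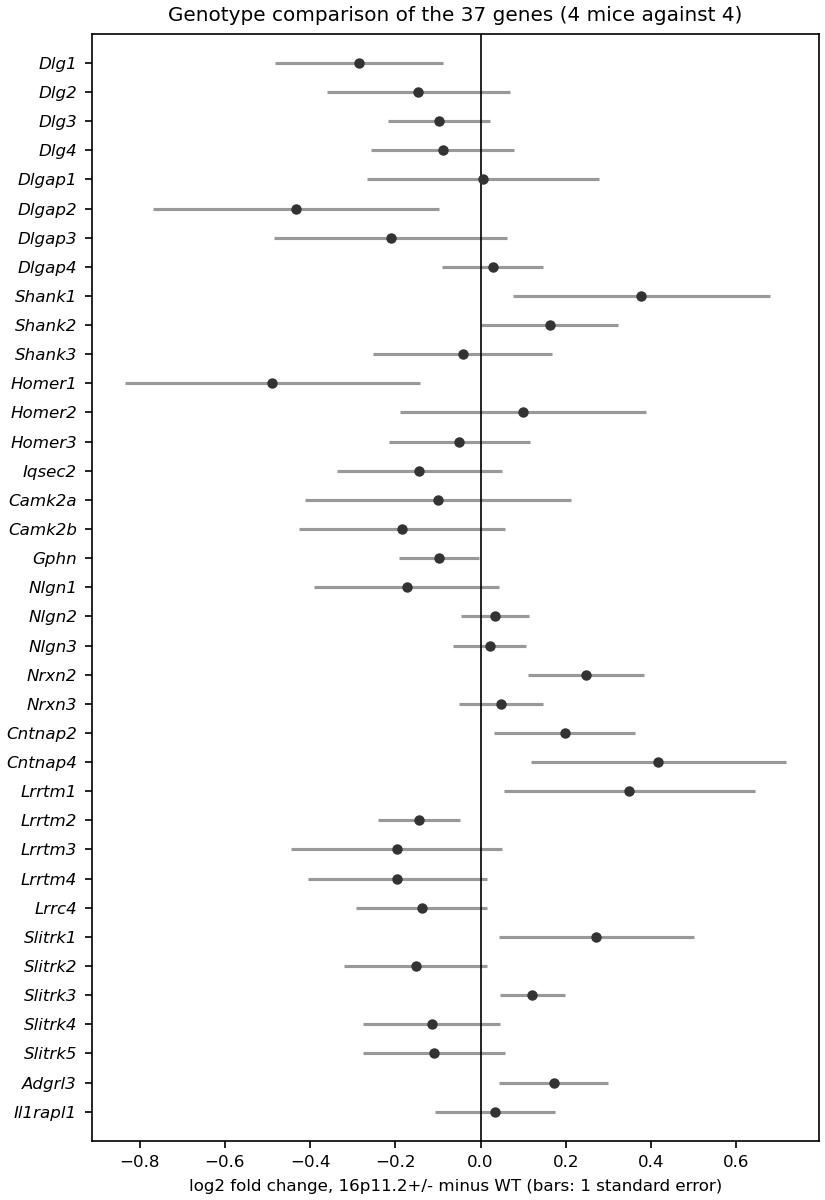
Log2 fold change of each of the 37 genes between genotypes (16p11.2+/- minus WT, 4 mice each, horizontal axis), with bars of 1 standard error. Values run from -0.49 for Homer1 to 0.42 for Cntnap4, and none had an edgeR adjusted p under 0.05.

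Since several members were high or low in the mice that stood apart in marker genes, the 37 were also read for how they moved with those markers. A marker score is the mean log2 CPM of a marker list in a mouse, and a slope is the log2 change of a gene per 1 unit of score in a model that also holds genotype. The scores come from the same libraries as the genes, no marker is one of the 37, and the slopes show how genes moved together and not where their RNA came from. The parts that other cell types or dissected tissue have in these slopes were not tested.

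The thalamic score was 2.33 to 3.24 in WT-1015, WT-1041, WT-1061 and DF-1059, and 5.62 to 6.59 in the other 4 mice. One member, Lrrtm1, rose with it: its slope was 0.27 with a standard error of 0.04 (edgeR adjusted p = 0.0254), where 1.02% of all genes tested passed in either direction and 0.968% rising. The 4 mice with the high scores were the 4 mice with the high Lrrtm1 levels. Across 8 fits that each left out 1 mouse, its slope stayed between 0.24 and 0.32, and it passed in 3 of them, with adjusted p between 0.00913 and 0.578. Without WT-1063 no gene of the whole table passed. Slitrk5 had a slope of -0.15 (standard error 0.03, edgeR adjusted p = 0.0779) and Slitrk4 one of -0.14 (standard error 0.03, edgeR adjusted p = 0.0910), and neither passed. DESeq2 called Lrrtm1, Slitrk5 and Slitrk4, where 609 genes of the table passed. In the edgeR fit, slopes were below 0 for 24 of the 37 (64.9%, beside 49.6% of all genes), with a median of -0.05 beside 0.00 over all genes. When the thalamic score was held in the model, the genotype log2 fold change of Lrrtm1 was -0.11 in place of 0.35. Its standard error there was 0.14 (edgeR unadjusted p = 0.465). High scores were found in WT-1063 alone of the WT mice and in DF-1018, DF-1037 and DF-1062. Thalamic score and genotype are therefore partly confounded. Of the 71 other scaffold and adhesion genes, 3 rose with the score. They were Ntng1 (netrin-G1, a presynaptic adhesion protein of thalamic axons) with a slope of 0.93, Slitrk6 with 0.54 and Tanc1, a PSD-95 binding scaffold, with 0.40 (edgeR adjusted p = 0.000978, 0.0204 and 0.00143).

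**Figure D3:**
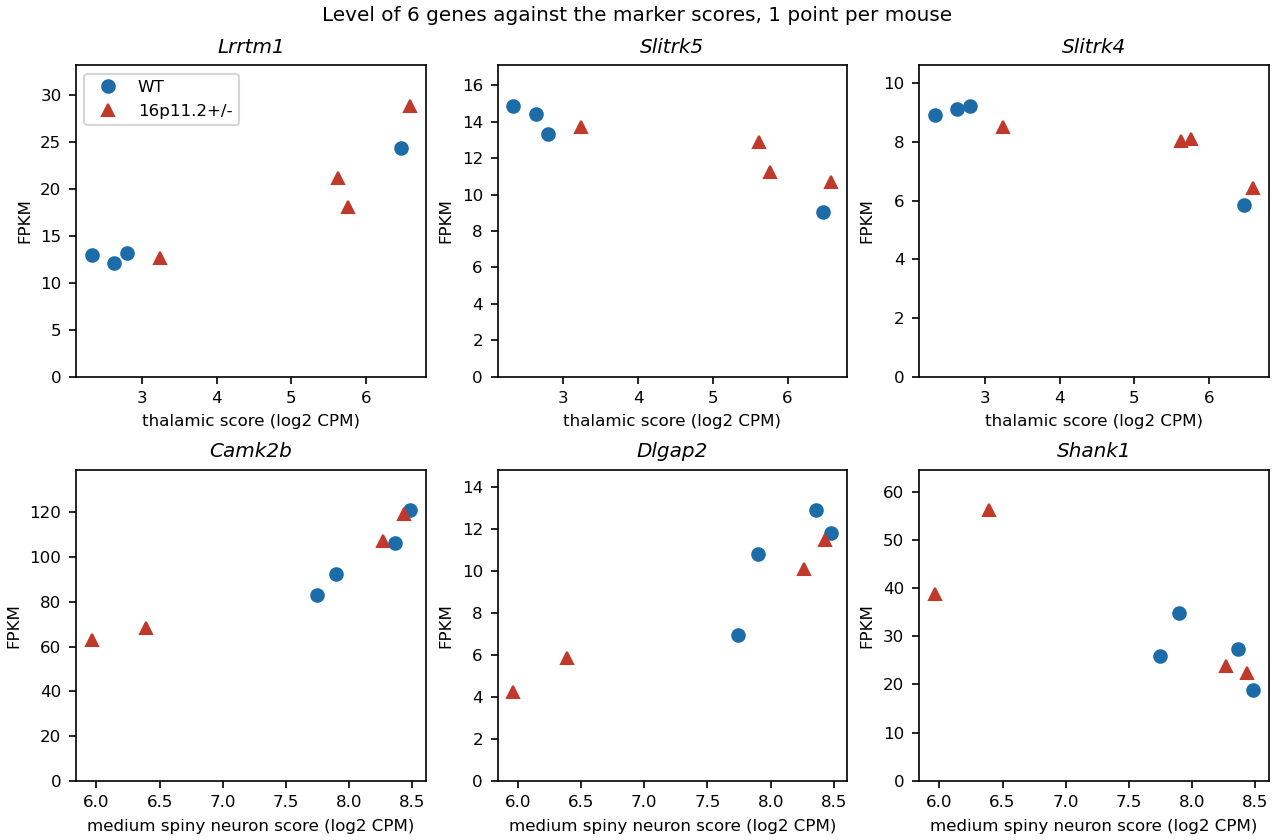
Level of 6 genes (FPKM, vertical axis, from 0) against the thalamic score (top row) or the medium spiny neuron score (bottom row), with 1 point per mouse, circles for WT and triangles for 16p11.2+/-. Lrrtm1 was 12.1 to 13.2 FPKM in the 4 mice with low thalamic scores and 18.1 to 28.9 in the 4 with high scores, and Camk2b ran from 63.1 FPKM in DF-1062 to 121.0 in WT-1061 as the medium spiny neuron score went from 5.96 to 8.48.

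The medium spiny neuron score was 7.74 to 8.48 in 6 mice, 6.39 in DF-1037 and 5.96 in DF-1062. Both low mice are 16p11.2+/-, and in WT mice this score spanned only 7.74 to 8.48. Score and genotype are therefore partly confounded. This fit was added after the data had been seen. In it 6 of the 37 rose and 0 fell by edgeR, where 3.94% of all genes rose and 1.25% fell. Camk2b had a slope of 0.42 (standard error 0.05, edgeR adjusted p = 0.00412) and Dlgap2 one of 0.58 (standard error 0.09, adjusted p = 0.0112). The other 4 were Dlg1, Nlgn1, Lrrtm4 and Dlg2, with slopes of 0.33 to 0.35 (edgeR adjusted p = 0.0136, 0.0258, 0.0285 and 0.0387). The 6 thus held a kinase subunit, a SAPAP, a pair of MAGUK scaffolds and 2 adhesion molecules. An unadjusted p under 0.05 was found for 15 of the 37, or 40.5%, beside 21.4% of all genes. Shank1 had a slope of -0.44 (standard error 0.13, edgeR adjusted p = 0.0919) and Lrrtm3 one of 0.37 (standard error 0.09, edgeR adjusted p = 0.0524), and neither passed in this fit. DESeq2 called 11 members, of which 9 rose and 2 fell, where 1701 genes of the table passed. Beside the 6 these were Lrrtm3, Dlg4 and Dlgap3, which rose, and Shank1 and Slitrk1, which fell (Shank1 adjusted p = 0.00485). With no genotype term in the edgeR model, 1940 genes of the table passed. In that fit Lrrtm3 also rose, and Shank1 (edgeR adjusted p = 0.0303) and Slitrk1 fell. Shank1 also passed without DF-1062, with a slope of -0.63 (edgeR adjusted p = 0.0319). Leaving out 1 mouse moved the count of members called from 0 without DF-1018, when 194 genes of the table passed, to 8 without DF-1037. Without DF-1037, 1374 genes of the table passed, and Homer1 was among the members called. The count of members was 2 without DF-1059 (353 genes of the table). It was 3 without WT-1015 (523 genes) or WT-1061 (446 genes). Of these 8 fits, Camk2b passed in 7, Dlgap2 in 6, Dlg1 in 5, Nlgn1 in 4, Lrrtm4 in 3 and Dlg2 in 1. Their slopes stayed above 0, and ran from 0.39 to 0.44 for Camk2b and from 0.29 to 0.47 for Nlgn1.

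Of the 71 other scaffold and adhesion genes, 9 rose and 5 fell with the medium spiny neuron score. Among those that rose were Ppp1r9a (neurabin, an actin-binding spine scaffold) with a slope of 0.59, Baiap2 (IRSp53, a Shank and PSD-95 partner) with 0.65 and Cnksr2 with 0.68. Cbln1, a secreted partner of neurexins, fell with a slope of -1.40, and its FPKM was 0.82 to 1.78 in 5 mice, 6.48 in WT-1063, 9.05 in DF-1037 and 12.8 in DF-1062. Also falling were Camk2d (slope -0.47), Lrfn1 (-0.45), Nectin1 (-0.45) and Caskin1 (-0.23). The edgeR adjusted p was 0.00205 for Ppp1r9a, 0.00601 for Baiap2, 0.00454 for Cnksr2 and 0.0459 for Cbln1. The cortical glutamatergic neuron score was used in a fit also added after the data had been seen. By edgeR adjusted p, 0 of the 37 passed, where 0.372% of all genes did. An unadjusted edgeR p under 0.05 was found for 4 of the 37, or 10.8%, beside 6.52% of all genes. The 4 were Lrrc4, Dlgap1, Cntnap2 and Camk2a, with slopes of 0.11, 0.18, -0.12 and 0.19.

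**Figure D4:**
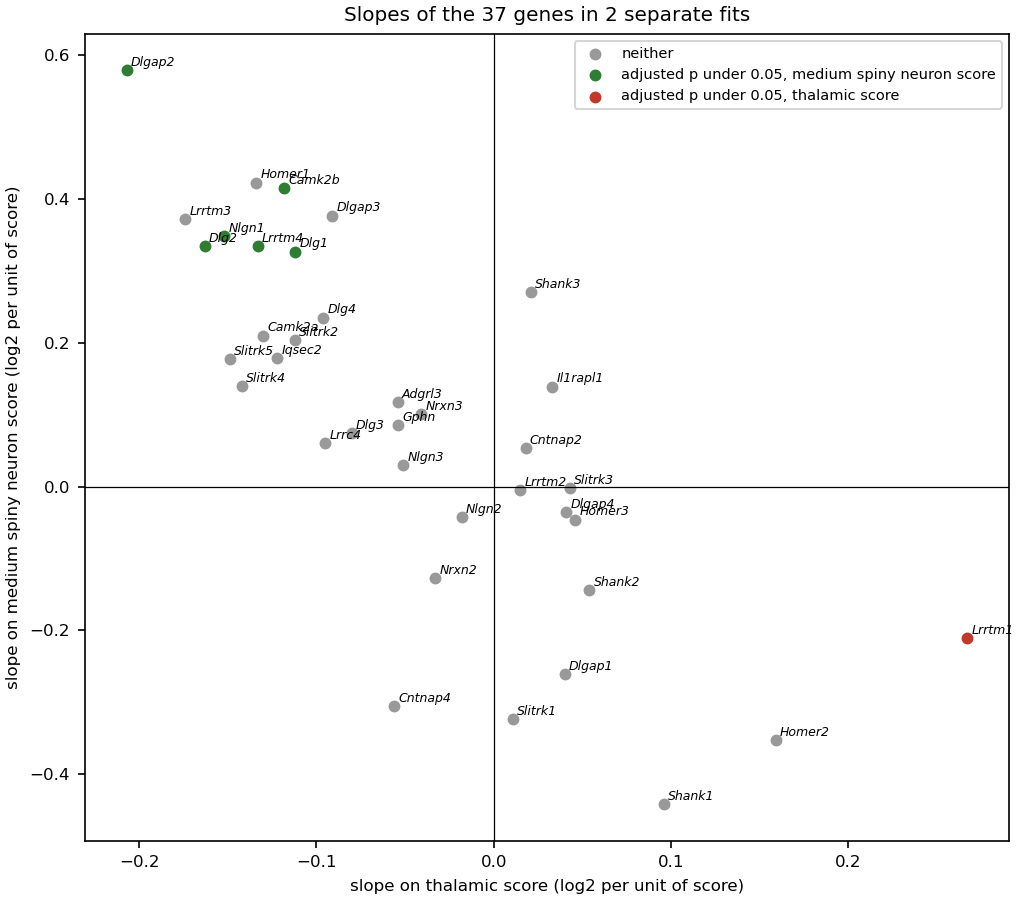
Slope of each of the 37 genes on the thalamic score (horizontal axis) and on the medium spiny neuron score (vertical axis), both as log2 change per unit of score, from separate fits that share the 8 mice. Lrrtm1 stands alone at the right with 0.27, and the 6 genes with an adjusted p under 0.05 on the medium spiny neuron score lie at 0.33 to 0.58 on the vertical axis.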

How the data were processed

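Striatum RNA was sequenced in 4 WT and 4 16p11.2+/- mice. The authors trimmed the reads, aligned them with Hisat2, and counted them per gene with Htseq-count. Raw counts and FPKM values per mouse are deposited. For 14504 of 14504 genes with at least 20 counts in every mouse, the deposited FPKM was the count over 1 fixed length and the mouse's total, to within 0.1%. The submitters' processing notes list Bowtie 0.12.2, mm8 and mm9 with no role. The build, annotation and strand setting behind the counts are not given in the sources used here. Positions are from GENCODE M21 (GRCm38), whose exon length equalled the length behind the FPKM for 97.4% of 35149 genes and for 36 of the 37. The authors' DESeq2 results and a summary of FPKM in bins were not used.

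Counts of all genes were fitted by quasi-likelihood in edgeR 4.0.16 (R 4.3.3), after TMM scaling and a low-count filter. The filter was filterByExpr with a minimum count of 10, which need not be reached in every library, and a minimum total of 15. Benjamini-Hochberg adjustment was over 18294 genes, with a threshold of 0.05. Standard errors come from the log2 fold change and F. Marker scores are mean log2 CPM (prior count 2) and entered models with genotype. Scripts were tested on simulated data with 200 changed genes, with the spread between mice taken from the genotype model. Of genes with a true log2 change of 1 between genotypes, 47.5% were called. With a true slope of 0.3 on the thalamic score 27.5% were called, and with 0.5 on the medium spiny neuron score 17.5%. A true change can thus go uncalled in these fits. Same-genotype libraries differed by more than counting noise (chi-square per degree of freedom 8.88 to 62.9). Each library is labelled with its own mouse.

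The members, lists and tests were chosen with earlier results of these data known. By rule, values of every mouse were given for members called in the genotype or thalamic fit (Lrrtm1) and for the most abundant member of each role group. The other members given by mouse or by extremes were chosen after their values were seen. Alternatives tried were RLE factors, other filters, score covariates, each mouse left out, DESeq2 1.42.0 and, from limma 3.58.1, voom on counts and trend fits of log2 FPKM with a pseudocount of 1 or 0.1. Scores of the 9 marker lists were compared between genotypes by exact two-sided permutation tests (smallest possible p 0.0286). The p was 0.314 for medium spiny neurons, 0.229 for thalamic neurons, 0.543 for cortical neurons, 0.400 for choroid plexus, 0.0286 for oligodendrocytes, 0.257 for astrocytes, 0.657 for microglia, 0.743 for endothelium and 0.800 for neurons, and the smallest adjusted over the 9 lists was 0.257.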

Additional observations from a re-analysis of the deposited data

Results flagged for a closer look

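In 11 of 74 groups (37 genes in 2 genotypes of 4 mice each), the FPKM of 1 mouse stood far from the other 3, with a gap to the nearest of them that took a larger share of the group's range than Dixon's 95% critical value for 4 samples allows. These are 14.9% of the groups, beside 6.66% of 36587 groups of all genes tested. Chance flags about 1 in 20 groups, and the genes share their mice, so that the count rests on few mice. In WT mice, WT-1063 was the mouse that stood apart in 5 of these groups. It was low for Dlg4 (40.1 FPKM, gap 0.934 of the range), Nlgn1 (6.19 FPKM, 0.849), Lrrc4 (11.0 FPKM, 0.865) and Slitrk4 (5.84 FPKM, 0.912), and high for Lrrtm1 (24.4 FPKM, 0.906). WT-1041 was high for Nrxn2 (15.3 FPKM, 0.834). In 16p11.2+/- mice, DF-1062 was low for Homer1 (6.96 FPKM, 0.886) and Iqsec2 (11.1 FPKM, 0.89) and high for Nlgn2 (34.2 FPKM, 0.863). DF-1037 was high for Dlgap1 (26.4 FPKM, 0.841) and low for Adgrl3 (3.88 FPKM, 0.853). WT-1063, DF-1037 and DF-1062 are the 3 mice with the lowest medium spiny neuron scores (7.74, 6.39 and 5.96, with the next at 7.90) and 3 of the 4 with high thalamic sums, and WT-1063 held the most choroid plexus RNA. The part of these in the values above was not tested.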

How the results depend on the processing

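Members called between genotypes stayed at 0 in every alternative run, and so did the 71 companion genes. Genes called over the whole table were 20, and 31 with DESeq2, 10 with the thalamic score as covariate, 11 without the 2 mice lowest in medium spiny neuron markers and 3 without the 4 mice highest in thalamic markers. The last fit leaves DF-1059 alone against 3 WT mice and assumes that it varies like them, and both were chosen after seeing the data. Leaving out 1 mouse gave 8 to 18. The members' median of -0.09 became 0.0547 with the thalamic score, 0.0377 with the medium spiny neuron score and 0.0314 without the 2 mice lowest in its markers, and -0.14 (without WT-1063) to 0.0319 (without DF-1062) with 1 mouse left out. Single log2 fold changes also turned sign, none past the threshold. With the thalamic score, Dlg4 was 0.086, Camk2a 0.16 and Lrrtm1 -0.11, and with the cortical score Camk2a was 0.081. With the medium spiny neuron score, Dlg4 was 0.098, Dlgap3 0.072, Shank1 -0.064 and Camk2a 0.068. Without the 2 mice, Dlg4 was 0.11, Dlgap3 0.078, Shank1 -0.20 and Camk2a 0.033. Without the 4 mice, Shank1 was -0.20 and Lrrtm1 -0.034. With 1 mouse left out, Dlg4 ranged from -0.18 to 0.047, Dlgap3 from -0.32 to 0.034, Camk2a from -0.27 to 0.14 and Nrxn3 from -0.005 to 0.10. Others kept their sign: Shank1 ranged from 0.055 to 0.54, Homer1 from -0.64 to -0.21, Nrxn2 from 0.13 to 0.34, Cntnap2 from 0.12 to 0.32, Cntnap4 from 0.032 to 0.58, Lrrtm1 from 0.12 to 0.64, Lrrtm2 from -0.22 to -0.070 and Adgrl3 from 0.12 to 0.29.

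For the thalamic score, 186 genes became 609 with DESeq2, 307 with no genotype term and 0 to 255 with 1 mouse left out, and the member count of 1 became 3 with DESeq2 and 0 to 2. For the medium spiny neuron score, 949 genes became 1701 with DESeq2, 1940 with no genotype term and 194 to 1374, and the member count of 6 became 11 with DESeq2 (9 rose, 2 fell) and 0 to 8. The cause of these changes was not tested. No paired analysis was possible because each mouse number occurs in 1 genotype only. Depth did not limit which members were tested, since every member passed the filter on low counts.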
